A study of Arabidopsis thaliana with 12 samples.

Results

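The genes described here encode CYBDOM proteins of *Arabidopsis thaliana*, which join a cytochrome b561 core to a DOMON domain. *AIR12*, which has the DOMON domain alone, is described with them. The genes were taken from a list of 10 gene identifiers that includes *CRR* (AT3G25290). The paper counts 10 CYBDOM proteins in this species, so the list, with 9 beside *AIR12*, may not hold all of them. Of the 10 identifiers, 9 were found among the 19802 genes of the expression table. The other, AT3G59070, has no row in the table and its level was not analysed here. The authors kept genes that reached 1 CPM (a read count scaled to the total of its library) in at least 1 library.

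Root RNA was sequenced from 4 groups of 3 libraries. CRR OE in –Pi and CRR OE in +Pi are seedlings in the Col-0 background that carry a fusion of *CRR* to GFP, driven by the CaMV 35S promoter, which is active in most plant tissues. Col-0 in –Pi and Col-0 in +Pi are the wild type. Seedlings grew on plates for 7 days, with 1 mM phosphate in +Pi and no added phosphate in –Pi. Roots of many seedlings were pooled in each library, the labels name a single overexpression line, and reads of the transgene are counted at the *CRR* locus together with those of the native gene.

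The deposited table holds 1 mean per group, in log2 CPM, and no value per library. The spread between the 3 libraries of a group is therefore unknown here, no test was possible, and every difference below is a difference of 2 group means without an error. A difference is called past the fold when it is at least 1 on the log2 scale, and each is also set against the same difference in all 19802 genes. The depth of the libraries is not in the table. In bulk roots, fewer cells that express a gene and less of its RNA per cell cannot be told apart.

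CYBDOM proteins are membrane proteins found in animals and, as a larger family, in plants. In the cytochrome b561 core, pairs of histidines hold heme, through which electrons can cross the membrane, commonly from ascorbate inside the cell to an acceptor outside. The DOMON domain lies on the outer face and can bind a further heme through a methionine and a histidine. In roots short of phosphate, iron and its redox state in the cell wall take part in the arrest of primary root growth, and *CRR* was studied for its part in that response.

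The conserved heme ligands can be seen in the genome. The proteins translated from the reference gene models were 369 to 466 residues long in the 9 CYBDOM members (393 in CRR, 394 in CRR;H1 and 404 in HYP1), against 273 in AIR12. In an alignment of all 10 proteins, 35 columns held the same residue in all 9 CYBDOM proteins, and 9 of these columns also matched AIR12. Apart from the first residue, a single methionine was shared by all 10, at position 89 of CRR and position 112 of AIR12. A single histidine was shared by all 10 as well, at position 180 of CRR and position 197 of AIR12. A further 5 histidines, at positions 220, 256, 289, 325 and 326 of CRR, were shared by the 9 CYBDOM proteins and not by AIR12. At 4 of these AIR12 has a gap in the alignment, and at position 220 it has another residue. From a predicted structure, the paper places 220 with 289 and 256 with 325 as heme ligands and does not name 326.

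The coding bases around the shared methionine and histidine are shown for *CRR*, its closest homologue *CRR;H1*, *HYP1* and *AIR12*. These positions are the heme ligands that AIR12, the shorter protein, has in common with the CYBDOM proteins. Each stretch runs 5′ to 3′ on the coding strand of TAIR10.1 as annotated by RefSeq, and the capitals mark the codon of the shared residue.
CRR methionine 89: aaggctaccggtATGgtcggatctcaa
CRR;H1 methionine 90: aaatccaccggcATGgctggatctcaa
HYP1 methionine 90: agtagtactcagATGgttgggacgcaa
AIR12 methionine 112: acggggactaagATGgctggttctcaa
CRR histidine 180: atgattgggaggCACgctttcgactcg
CRR;H1 histidine 180: aggatacaggctCATgatttcagcggt
HYP1 histidine 174: gttcctgcgagtCATcaaacctcagga
AIR12 histidine 197: cgtcccggtgtaCATcctttcggtcct

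The members differ widely from one another in sequence. CRR and CRR;H1 were identical at 76.2% of aligned residues, and AT4G17280 and AT5G47530 at 78.1%. CRR shared 50.9% with AT5G47530, 48.8% with AT4G17280, 47.6% with AIR12 over the aligned residues, 44.7% with HYP1 and, at the lowest, 29.2% with AT3G61750. AIR12 aligned with CRR over 231 residue pairs and HYP1 over 380. Over the length of the shorter protein the order was reversed, with 40.3% for AIR12 and 43.3% for HYP1. The heat map of identity shows both close pairs and the distant position of AT3G61750 and AT3G07570.

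**Figure D1:**
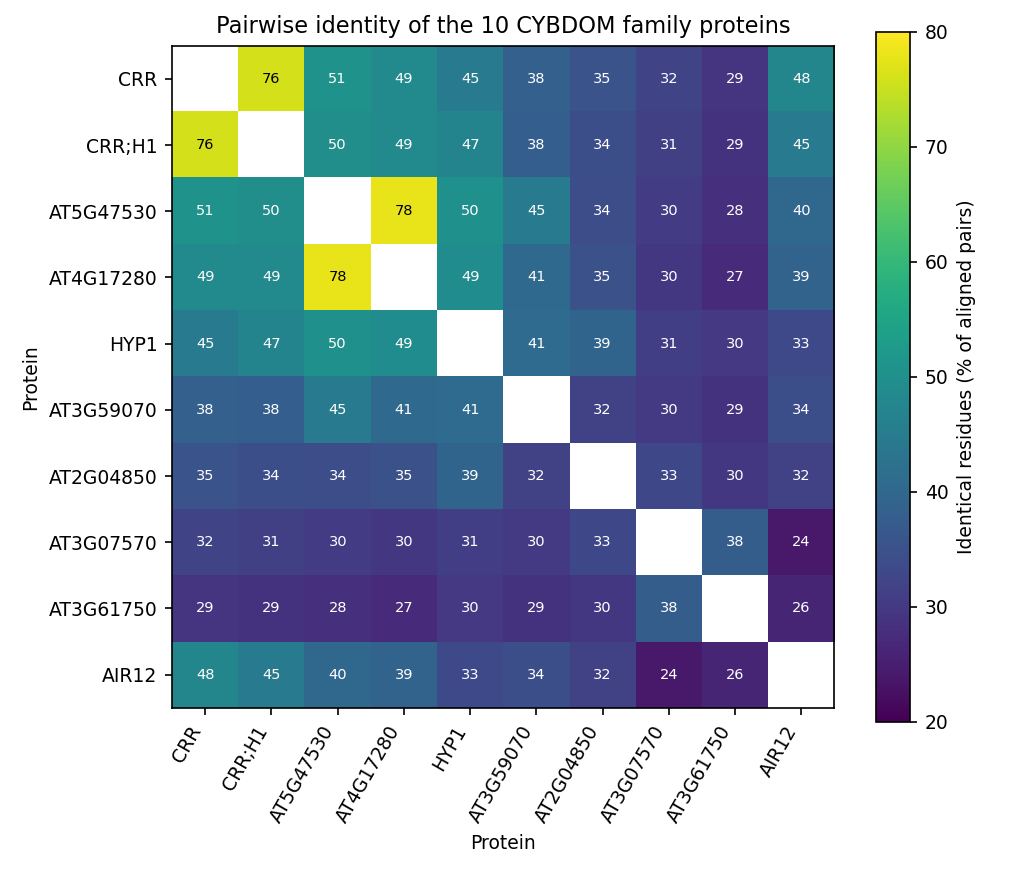
Identical residues as a percentage of aligned residue pairs for each pair of the 10 proteins, both axes listing the proteins by name and colour giving the percentage. The brightest cells are CRR with CRR;H1 (76.2%) and AT4G17280 with AT5G47530 (78.1%).

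The resemblance of *CRR* and *CRR;H1* bears on how reads can be assigned, since the overexpressed transcript is so abundant. The longest stretch their coding sequences share without a mismatch was 32 bases, and *CRR* shared at most 17 with any other member. That stretch is shown in capitals with 20 bases on either side, from the RefSeq coding sequences of TAIR10.1, at coding bases 758 to 829 of *CRR* and 761 to 832 of *CRR;H1*.
CRR: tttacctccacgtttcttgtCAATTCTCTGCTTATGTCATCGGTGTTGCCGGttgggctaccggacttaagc
CRR;H1: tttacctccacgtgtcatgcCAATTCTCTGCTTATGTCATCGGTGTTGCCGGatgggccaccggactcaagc
*CRR;H1* had 9.46 CPM in CRR OE –Pi against 8.28 in Col-0 –Pi, and 10.7 in CRR OE +Pi against 10.2 in Col-0 +Pi. *CRR* had 6750 CPM in CRR OE –Pi and 6677 in CRR OE +Pi. Whether any *CRR* reads were counted for *CRR;H1* was not tested.

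*CRR* (chromosome 3 from 9208861 to 9210653 in TAIR10, plus strand, 3 coding exons) exceeded its wild-type level by a wide margin in CRR OE roots in both media. Its mean, as the authors give it, was 12.72 log2 CPM in CRR OE –Pi, 12.70 in CRR OE +Pi, 5.95 in Col-0 –Pi and 5.96 in Col-0 +Pi. In CPM these are 6750, 6677, 62.0 and 62.0. In both CRR OE groups *CRR* was the gene with the second-highest mean of the whole table, while it ranked 3905 in Col-0 –Pi and 3800 in Col-0 +Pi. CRR OE exceeded Col-0 by 6.77 on the log2 scale in –Pi and by 6.75 in +Pi, which is about 109-fold and 108-fold. This is the check that the 2 lines are what their labels say, and it was met in both media.

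*CRR* differed little between –Pi and +Pi in roots of either line. The difference of –Pi and +Pi was 0.02 log2 in CRR OE, where transcripts of the transgene and of the native gene are counted together. In Col-0, where only the native gene is present, the 2 means round to the same 62.0 CPM. Of all genes, 99.8% lay at least as far from 0 as *CRR* did in Col-0.

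Since *CRR* is so abundant in CRR OE, its share of all reads was computed. It made up 0.665% of the summed CPM of the table in CRR OE –Pi and 0.667% in CRR OE +Pi, against 0.00619% in Col-0 –Pi and 0.00635% in Col-0 +Pi. Among the 9 measured members it held 97.0% of the summed CPM in CRR OE –Pi and 97.1% in CRR OE +Pi, against 22.3% in Col-0 –Pi and 24.3% in Col-0 +Pi. The summed CPM of the other 8 members was 206, 199, 216 and 194 in the same order of groups, so this sum was within the same narrow range in both lines.

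**Figure D2:**
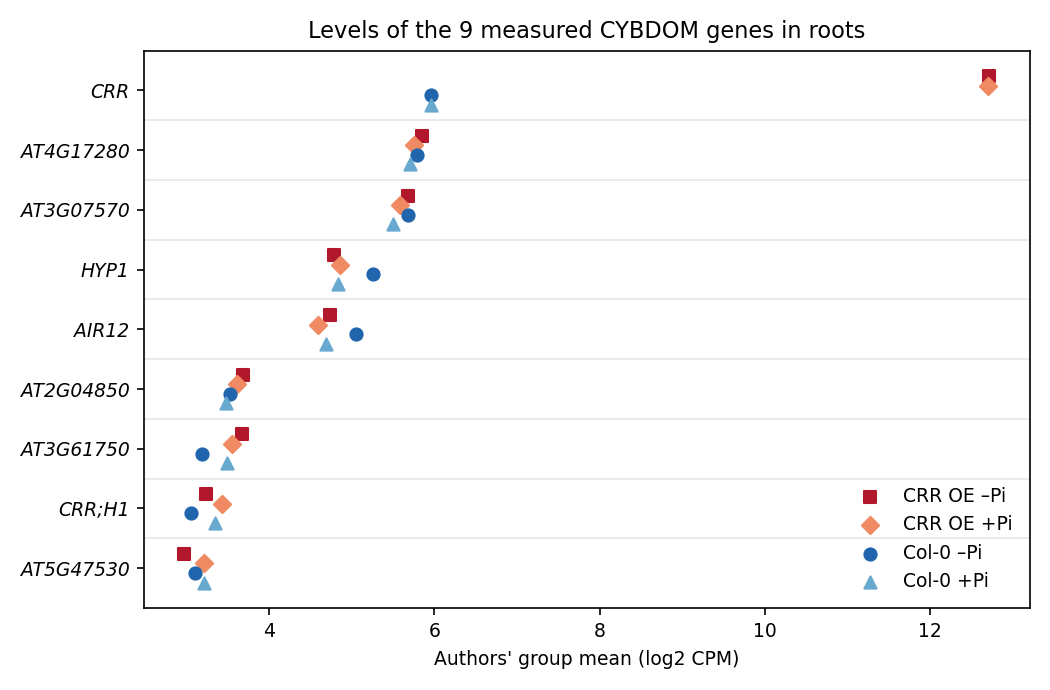
Group means of the 9 measured members on the log2 CPM axis, 1 row per gene and 1 symbol per group, with no error bars because the table holds no value per library. *CRR* stands at 12.72 and 12.70 in CRR OE and near 5.96 in Col-0, while the 4 symbols of every other gene lie within 0.48 of each other.

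The other CYBDOM members and *AIR12* were all present in roots, between 2.97 and 5.85 log2 CPM, and none of the 8 differed between the lines past the fold. Between the lines, 0.288% of all genes were past the fold in +Pi and 1.45% in –Pi, and *CRR* was the only member among them in either medium. At these shares, none among the other 8 says little. In +Pi the differences of the 8 ran between -0.10 and 0.13, with a median of 0.06 (all genes 0.00), and the median absolute difference was 0.07 (all genes 0.08). In –Pi they ran between -0.48 and 0.48, with a median of 0.03 (all genes 0.00), and the median absolute difference was 0.17 (all genes 0.11). The 8 genes thus lay close together between the lines in +Pi and spread further apart, in both directions, in –Pi.

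Levels can be compared between genes only per length, so CPM was divided by the exon length of each gene. On that scale the order in Col-0 +Pi was *CRR* at 39.4 CPM per kb, AT4G17280 at 32.9, AT3G07570 at 32.6, *AIR12* at 21.5, *HYP1* at 16.7, AT2G04850 at 7.09, AT5G47530 at 6.30, *CRR;H1* at 5.68 and AT3G61750 at 5.61. *CRR* was thus the member with the most native transcript per length in wild-type roots, and its close homologue *CRR;H1* was among the lowest. In Col-0 –Pi *CRR* was again first at 39.4, followed by AT3G07570 at 37.0, AT4G17280 at 34.9, *AIR12* at 27.8 and *HYP1* at 22.3, and the other 4 members lay between 4.53 and 7.35. Whether neighbours in this order differ beyond the spread of the libraries could not be judged. In CRR OE *CRR* reached 4283 CPM per kb in –Pi and 4236 in +Pi, and the next member, AT3G07570, had 36.9 and 34.4.

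**Figure D3:**
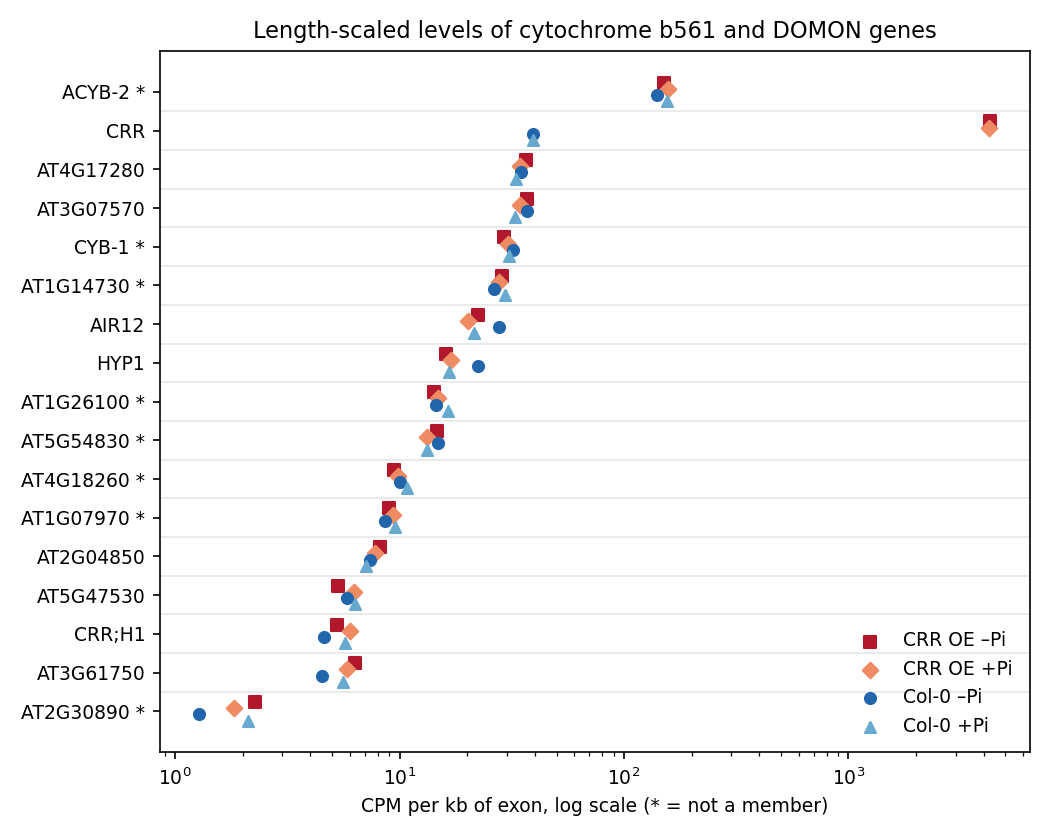
CPM per kb of exon on a log axis for the 9 measured members and, with an asterisk, 8 other genes of cytochrome b561 or DOMON proteins, ordered by Col-0 +Pi, 1 symbol per group. *ACYB-2* lies above every native member at 141 to 157 CPM per kb, *CRR* leads the members at 39.4 in both Col-0 groups, and only *CRR* separates the lines by a large distance.

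*CRR;H1* (AT4G12980, chromosome 4 from 7589247 to 7591259, minus strand) encodes the protein closest to CRR. Its means were 3.24 log2 CPM in CRR OE –Pi, 3.42 in CRR OE +Pi, 3.05 in Col-0 –Pi and 3.35 in Col-0 +Pi. It was thus a little lower in –Pi than in +Pi in each line, by -0.18 in CRR OE and -0.30 in Col-0. CRR OE differed from Col-0 by 0.19 in –Pi and 0.08 in +Pi.

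*HYP1* (AT5G35735, chromosome 5 from 13900695 to 13903218, minus strand) is another CYBDOM gene that the study examined beside *CRR*. Its means were 4.78 log2 CPM in CRR OE –Pi, 4.86 in CRR OE +Pi, 5.26 in Col-0 –Pi and 4.84 in Col-0 +Pi. Col-0 –Pi was thus the group that stood apart, and the other 3 groups lay together. CRR OE was lower than Col-0 by a difference of -0.48 in –Pi, while in +Pi the lines differed by 0.02. A difference this far from 0 in –Pi was found in 7.46% of all genes. The –Pi response was -0.08 in CRR OE and 0.42 in Col-0, and their difference was -0.49, a size reached by 9.33% of all genes.

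*AIR12* (AT3G07390, chromosome 3 from 2365301 to 2366496, plus strand, 1 coding exon) encodes a protein held to the outer face of the plasma membrane by a lipid anchor. Its means were 4.73 log2 CPM in CRR OE –Pi, 4.59 in CRR OE +Pi, 5.06 in Col-0 –Pi and 4.69 in Col-0 +Pi. As with *HYP1*, Col-0 –Pi was the highest group. CRR OE differed from Col-0 by -0.32 in –Pi, a size reached by 14.7% of all genes, and by -0.10 in +Pi. The –Pi response was 0.15 in CRR OE and 0.37 in Col-0.

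AT3G61750 (chromosome 3 from 22857577 to 22859669, minus strand), the protein least like CRR, had the reverse pattern. Its means were 3.67 log2 CPM in CRR OE –Pi, 3.55 in CRR OE +Pi, 3.19 in Col-0 –Pi and 3.49 in Col-0 +Pi, so that Col-0 –Pi was its lowest group. CRR OE exceeded Col-0 by 0.48 in –Pi, a size reached by 7.26% of all genes, and by 0.06 in +Pi. The –Pi response was 0.12 in CRR OE and -0.31 in Col-0, and their difference was 0.42, a size reached by 11.9% of all genes. The range of its 4 means, 0.48, was close to that of *HYP1*, also 0.48.

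The remaining 4 members varied less. AT4G17280 and AT5G47530, the other close pair of proteins, differed in level, with means of 5.70 to 5.85 and 2.97 to 3.22 log2 CPM. CRR OE differed from Col-0 by 0.07 in –Pi and 0.06 in +Pi for AT4G17280, and by -0.13 and -0.01 for AT5G47530. AT3G07570 had means of 5.68 in CRR OE –Pi, 5.58 in CRR OE +Pi, 5.69 in Col-0 –Pi and 5.50 in Col-0 +Pi. AT2G04850 had 3.68, 3.61, 3.53 and 3.48 in the same order, and its difference between the lines was 0.15 in –Pi and 0.13 in +Pi. The range of the 4 group means was at most 0.24 in these genes, against 0.47 or more in *HYP1*, *AIR12* and AT3G61750.

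Another measured gene overlaps 3 of the members on the opposite strand, and strand-specific counting is not stated in the sources used here, so that reads of the partners cannot be told apart. AT2G04850 shares 631 bases with the antisense gene AT2G04852, which had 1.27 to 1.60 log2 CPM. AT4G17280 shares 153 bases with AT4G17270 (6.55 to 6.66 log2 CPM), and AT5G47530 shares 33 bases with AT5G47540 (5.50 to 5.70). None of the measured genes overlaps the other 6 members.

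**Figure D4:**
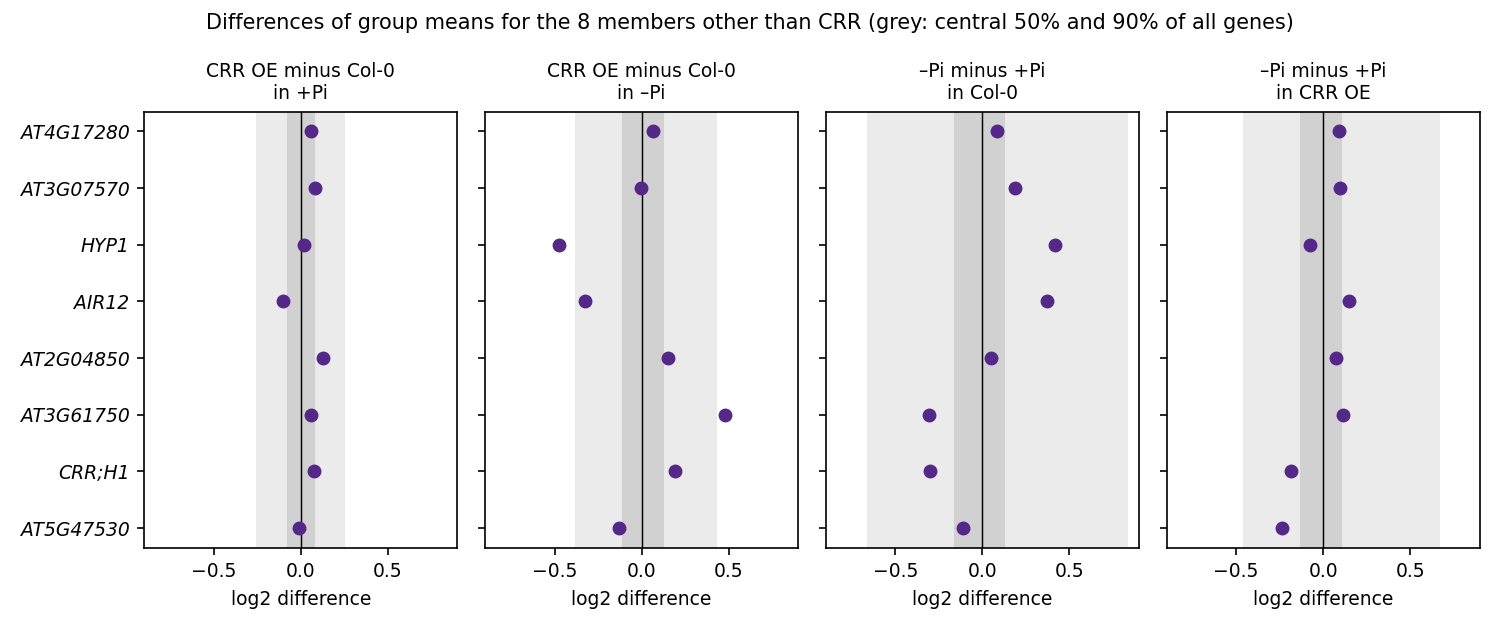
Log2 differences of group means for the 8 members other than *CRR*, in 4 panels for CRR OE against Col-0 in each medium and –Pi against +Pi in each line, with grey bands for the central 50% and 90% of all 19802 genes. In –Pi, *HYP1* at -0.48 and AT3G61750 at 0.48 lie outside the band of -0.38 to 0.43 that holds the central 90%, and in the other 3 panels each of the 8 lies inside the band of that panel.

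No member was past the fold in –Pi against +Pi. Of all genes, 4.03% were past it in CRR OE and 5.97% in Col-0, so 0 of 9 members in each line says little. In Col-0 the 8 members other than *CRR* ran between -0.31 and 0.42, with a median of 0.07 (all genes -0.02) and a median absolute difference of 0.24 (all genes 0.14). In CRR OE they ran between -0.23 and 0.15, with a median of 0.08 (all genes -0.01) and a median absolute difference of 0.11 (all genes 0.12). *HYP1* and *AIR12* had the highest –Pi response in Col-0, AT3G61750 and *CRR;H1* the lowest.

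For the –Pi response of CRR OE minus that of Col-0, 2.15% of all genes were past the fold and again 0 of 9 members, which says little. The members' values ran between -0.49 for *HYP1* and 0.42 for AT3G61750, and the central 90% of all genes between -0.44 and 0.50, so that *HYP1* lay outside it. These values share their groups with the comparisons above and are not further evidence. The plot of the response in both lines shows *HYP1* and AT3G61750 farthest from the line of equal response.

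**Figure D5:**
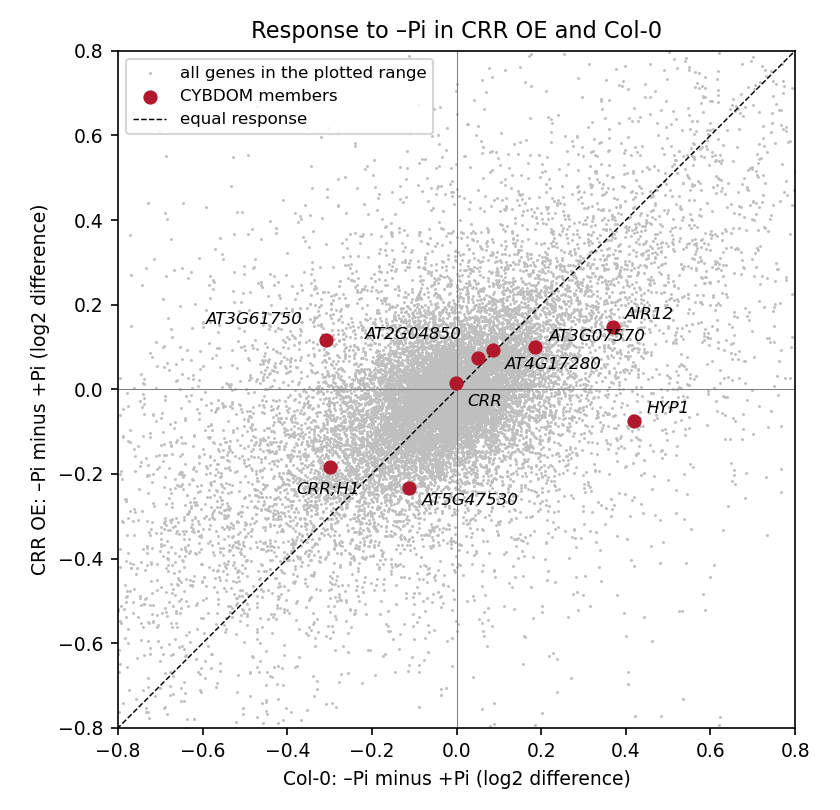
Response to –Pi, as the log2 difference of –Pi and +Pi, in CRR OE (vertical axis) against Col-0 (horizontal axis) for the 9 measured members over the genes of the table that fall in the plotted range, with a dashed line of equal response. *HYP1* (-0.08 in CRR OE, 0.42 in Col-0) lies below the line, AT3G61750 (0.12 in CRR OE, -0.31 in Col-0) above it, and *CRR* at the centre.

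That the –Pi plants were short of phosphate was checked on 4 genes known to be induced by phosphate starvation, and all 4 were past the fold in both lines. *IPS1*, a non-coding RNA of the starvation response, was higher in –Pi by 10.09 in CRR OE and 10.10 in Col-0. The phosphate sensor gene *SPX1* was higher by 6.76 in CRR OE and 6.70 in Col-0. Of the markers of root tissues 6 of 6 were measured, between 3.47 and 6.22 log2 CPM. Of the markers of green shoots 3 of 5 were measured. *RBCS1A* and *CAB1* had 3.18 to 4.0 log2 CPM, and *CA1* was near the bottom of the table at -1.54 in CRR OE –Pi and -3.27 in CRR OE +Pi, against -3.99 in Col-0 –Pi and -4.05 in Col-0 +Pi. The green markers were thus low but not absent. *CA1* was highest in CRR OE –Pi. *RBCS1A* had 3.71 log2 CPM in CRR OE –Pi, 3.33 in CRR OE +Pi, 3.18 in Col-0 –Pi and 4.0 in Col-0 +Pi, so that CRR OE differed from Col-0 by 0.53 in –Pi and -0.67 in +Pi. Its difference of the responses, 1.2, was past the fold, and like AT3G61750 it was lowest in Col-0 –Pi. The other green markers did not share that pattern. *CAB1* had 3.87 log2 CPM in CRR OE –Pi, 3.44 in CRR OE +Pi, 3.96 in Col-0 –Pi and 3.75 in Col-0 +Pi. Col-0 –Pi was thus the highest group of *CAB1*, and Col-0 +Pi was the lowest of *CA1*. The 3 green markers summed to 28.1 CPM in CRR OE –Pi and 21.1 in CRR OE +Pi. In Col-0 they summed to 24.7 CPM in –Pi and 29.6 in +Pi. The 6 root markers summed to 250.2, 217, 249 and 209 CPM in the same order of groups. For CRR OE against Col-0 in –Pi, 3 of the 6 root markers lay above 0 and 3 below, with a median of -0.04, the highest being *COBL9* of root hairs (0.19) and the lowest *SMB* of the root cap (-0.38). *SMB* had 3.50 log2 CPM in CRR OE –Pi, 3.47 in CRR OE +Pi, 3.88 in Col-0 –Pi and 3.64 in Col-0 +Pi. *PLT1* of the meristem had 4.16, 4.07, 4.46 and 4.07 in the same order. Both were highest in Col-0 –Pi, as *HYP1* and *AIR12* were, and the other root markers were highest in a CRR OE group. The part of these markers in the members' differences was not tested.

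The promoters of the 9 measured members were searched for the P1BS motif (GNATATNC), which the phosphate starvation regulator PHR1 binds, and for the G-box (CACGTG), which bHLH factors bind, on both strands of 250 bases before to 50 bases after the annotated start. P1BS was found in 0 of 9 members and in 6.29% of 19420 promoters of measured genes. The G-box was found in 1 of 9, AT5G47530, where it begins at -71, and in 8.63% of all. These are matches of letters in a short window and say nothing of binding.

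The nearest measured genes on either side of *CRR* were *OXI1*, 11734 bases away, and AT3G25400, 2208 bases away. *OXI1*, a protein kinase gene, differed between CRR OE and Col-0 by -0.03 in –Pi and 0.15 in +Pi, and AT3G25400 by -0.13 and -0.08. These genes flank the native *CRR*, while reads of the transgene are only counted there, so their values say nothing of the high level at *CRR*.

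The genes whose 4 means were most like those of *CRR* were sought by the root mean square distance between profiles centred on their own mean. The closest were AT1G75945, at a distance of 0.27, AT1G64795, at 0.55, and the MADS-box gene *MAF5*, at 2.11. AT1G75945 had 2.46 log2 CPM in CRR OE –Pi and 2.67 in CRR OE +Pi, and stood in both Col-0 groups at the table's minimum of -4.71. For AT3G61750 the closest were AT1G43140, the NAD kinase gene *NADK1* and the dirigent gene *DIR14*, each at a distance of 0.01. A profile with a range as small as that of AT3G61750 is easily matched among 19802 genes. The profile of *CRR* was not, since the distance rose from 0.55 for AT1G64795 to 2.11 for *MAF5*. AT1G64795 had 3.65 log2 CPM in CRR OE –Pi and 4.10 in CRR OE +Pi, against -3.56 in Col-0 –Pi and -4.15 in Col-0 +Pi. Why AT1G75945 and AT1G64795 differed between the lines was not tested.

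Cytochrome b561 proteins without a DOMON domain can also carry electrons from ascorbate across membranes. All 4 of their genes were measured and 0 of 4 were past the fold in any comparison. Of all genes, 0.288% to 5.97% were past it, depending on the comparison, so 0 in a list this short says little. *ACYB-2* was the most abundant, with 7.53 log2 CPM in CRR OE –Pi, 7.59 in CRR OE +Pi, 7.43 in Col-0 –Pi and 7.57 in Col-0 +Pi. A further 4 genes are described in the table as cytochrome b561 or DOMON proteins. One of them, AT2G30890, was past the fold in the difference of the responses, at 1.02. It had 1.29 log2 CPM in CRR OE –Pi, 0.98 in CRR OE +Pi, 0.47 in Col-0 –Pi and 1.19 in Col-0 +Pi, low in every group.

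Ascorbate is the usual electron donor of cytochrome b561 proteins, and all 7 listed genes of its synthesis were measured. *VTC4*, whose enzyme removes the phosphate of L-galactose 1-phosphate, was past the fold in –Pi against +Pi, by 1.79 in CRR OE and 2.02 in Col-0, and the other 6 were not. Of all genes, 4.03% were past the fold for –Pi against +Pi in CRR OE and 5.97% in Col-0. For CRR OE against Col-0, 0 of 7 were past the fold in either medium (all genes 1.45% in –Pi and 0.288% in +Pi), which says little. The median difference was -0.05 in –Pi and -0.06 in +Pi.

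Oxidized ascorbate is returned to ascorbate by monodehydroascorbate reductases (MDAR) and dehydroascorbate reductases (DHAR). All 8 genes were measured and 0 of 8 were past the fold in any comparison (all genes 0.288% to 5.97%), which says little. In –Pi 7 of the 8 lay below 0 for CRR OE against Col-0, with a median of -0.16. In +Pi 2 of 8 did, with a median of 0.04. Of all 19802 genes, 9873 lay below 0 in –Pi and 9913 in +Pi. The median absolute difference of the 8 in –Pi was 0.16 (all genes 0.11). *MDAR3* was the farthest, with 6.44 log2 CPM in CRR OE –Pi and 7.12 in Col-0 –Pi. Its difference of -0.68 was of a size reached by 3.67% of all genes. *DHAR1* followed with 8.64 in CRR OE –Pi and 9.02 in Col-0 –Pi, a difference of -0.37 (11.6% of all genes were at least as far).

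The ferric reductase oxidases (FRO) are membrane proteins that reduce iron or copper with electrons from NADPH, some at the plasma membrane and others in organelles, and 5 of the 8 genes were measured. *FRO2*, the main iron reductase of roots short of iron, had 6.21 log2 CPM in CRR OE –Pi, 6.84 in CRR OE +Pi, 4.88 in Col-0 –Pi and 6.38 in Col-0 +Pi. It was lower in –Pi in each line, by -0.63 in CRR OE and -1.50 in Col-0, and CRR OE exceeded Col-0 by 1.32 in –Pi and 0.46 in +Pi. *FRO5* had 4.22 in CRR OE –Pi, 6.85 in CRR OE +Pi, 5.49 in Col-0 –Pi and 6.85 in Col-0 +Pi. In –Pi it was thus lower in CRR OE, by -1.27, the opposite direction to *FRO2*. The neighbouring paralogue *FRO4* had 6.45 in CRR OE –Pi and 7.24 in Col-0 –Pi, against 5.91 in CRR OE +Pi and 5.77 in Col-0 +Pi. *FRO8*, low in all groups, differed by -0.82 between CRR OE and Col-0 in –Pi. It was higher in –Pi by 0.45 in CRR OE and by 1.75 in Col-0. Its difference of the responses, -1.30, was past the fold, a size reached by 1.11% of all genes. That of *FRO5*, at -1.27, was past it too, a size reached by 1.15% of all genes. In this comparison 2 of the 5 genes were lower past the fold and 0 higher (all genes 2.15%). Between the lines in –Pi, 1 of the 5 genes was higher and 1 lower past the fold (all genes 1.45%). In +Pi 0 of 5 were past it (all genes 0.288%), which says little. *FRO4* and *FRO5* resemble each other, and how reads shared by both were counted is not given in the sources used here.

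Among 7 genes known for the arrest of root growth in low phosphate, which include the ferroxidase genes *LPR1* and *LPR2*, 0 were past the fold in any comparison. The share of all genes past it was 0.288% to 5.97%, so 0 of 7 says little. For CRR OE against Col-0 the farthest was *ALMT1*, a malate channel gene, with 5.10 log2 CPM in CRR OE –Pi and 5.55 in Col-0 –Pi, a difference of -0.45. In +Pi the 7 lay between -0.03 and 0.17.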

How the data were processed

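Before deposit, the authors cleaned the reads (Cutadapt 1.8, with removal of ribosomal and low-complexity sequences), mapped them to TAIR10 by STAR 2.5.3a and tallied reads per gene in HTSeq 0.9.1. They removed genes under 1 CPM in every library, scaled by TMM with edgeR 3.24.3 and deposited log2 CPM as 1 mean per group of 3 libraries. R 3.5.3 and RSEM 1.2.31 are listed in the submitters' processing notes too. The methods name Trizol for the extraction and the labels a column kit. Another 5 deposited tables hold the authors' comparisons by limma (fold changes, test statistics and p-values) and were not used. Group means hide the spread of the libraries, so no error or test could be computed.

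Differences of the log2 means were taken for 4 comparisons and for the difference of the –Pi responses, over all 19802 genes, with Python 3.11.15, pandas 2.3.3 and numpy 2.4.6. The computation was tested on simulated data. CPM is 2 to the power of the mean log2 value, divided by exon length for CPM per kb. Proteins were translated from the longest RefSeq coding sequence of each gene in TAIR10.1 with Biopython 1.88 and aligned with MAFFT 7.526. Of 19782 nuclear genes of the table, 19780 have the same start and end there. Figures were drawn with matplotlib 3.10.9. The alternatives were 1 CPM added before the logarithm, a minimum mean of 1 log2 CPM, centring, quantile normalisation, a fold of 0.5, another denominator of identity and a shorter promoter window.

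The members and the other gene lists were chosen with earlier results of these data known. Every member is named, and of each other list at most 3 genes, those with the largest absolute difference in a comparison, besides the neighbours of *CRR*, the genes with the most similar profiles, and the marker genes. *ACYB-2* and *FRO4* are named for their level and their likeness to *FRO5*, after their values were seen.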

Additional observations from a re-analysis of the deposited data

How the results depend on the processing

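No paired analysis was possible because the columns are group means with no replicate number. For the same reason the replicate block and the runs that leave out 1 library were not run. The count of members past the fold was the same under every alternative (1 in each comparison of the lines, *CRR*, and 0 in the others). Of 180 member differences recomputed, 178 moved by less than 0.1. The 2 that moved more are those of *CRR* between the lines under quantile normalisation (6.24 in –Pi and 6.21 in +Pi). AT5G47530 in +Pi, a difference near 0, changed sign to 0.01 there. The counts over all genes depended on low values and on the fold. For CRR OE against Col-0 in +Pi, 57 genes were past the fold, 8 with 1 CPM added, 8 among genes with a mean of at least 1 log2 CPM and 424 at a fold of 0.5. In –Pi these were 287, 92, 106 and 1342. For –Pi against +Pi they were 799, 499, 493 and 2172 in CRR OE, and 1182, 723, 748 and 3201 in Col-0. For the difference of the responses they were 426, 136, 176 and 1801. Small differences between group means, such as those of *HYP1*, *AIR12* and AT3G61750, cannot be set against replicate error here.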
